A study of Homo sapiens with 17 samples.

Results

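The genes described here are the 2 coactivators YAP1 and WWTR1 (TAZ), the 4 TEAD transcription factors TEAD1, TEAD2, TEAD3 and TEAD4, and 4 genes that the pathway regulates, LATS2, AMOTL2, CCN1 and CCN2, in the human thyroid epithelial line Nthy-ORI. They are 10 of 20033 protein-coding genes, chosen by name, and a peak was assigned to a gene when it overlapped the RefSeq span of the gene extended by 25 kb on each side. On chromosomes 1 to 22, X and Y the deposited lists held 266843 peaks in all, of which 580 lay in these 10 windows. The peaks came from CUT&RUN, in which an antibody guides a nuclease to a chromatin protein so that the DNA around it is released and sequenced. Nthy-ORI is an immortalised line derived from normal thyroid, and all groups shared a 24 h hormone starvation in stripped serum. Each group then received either vehicle (NaOH) or 10 nM T3, the active thyroid hormone. The label of each library gives 6 h of exposure, while the protocol text also names a 24 h one. Antibodies recognised the thyroid hormone receptor TRβ, BRG1 (the SMARCA4 ATPase of SWI/SNF chromatin remodelers), ARID1A (a subunit of the BAF form of SWI/SNF) and PBRM1 (a subunit of the PBAF form). The 4 antibodies and 2 conditions gave 8 groups, each with 2 libraries of 500000 cells and 1 list of peaks found in both. Nothing in the labels says whether the libraries came from separate cultures, and a further IgG library was not analysed here. With 1 list a group there is no replicate of a list, so every difference between conditions is given as a description without a test. Read depth is unknown, and absence from a list means only that no peak passed in both libraries.

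YAP and TAZ are coactivators without DNA-binding domains of their own that act on genes mainly through TEAD factors. The Hippo kinases, among them LATS2, phosphorylate YAP and TAZ and keep them out of the nucleus, and AMOTL2 (angiomotin-like) binds them in the cytoplasm. LATS2, AMOTL2, CCN1 (CYR61) and CCN2 (CTGF) are themselves well-known YAP/TAZ-TEAD target genes, and CCN1 and CCN2 encode secreted matricellular proteins. Thyroid hormone receptors bind DNA with or without hormone, usually as heterodimers with retinoid X receptors, and SWI/SNF complexes slide or evict nucleosomes at promoters and enhancers.

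Promoter sequences were at hand for 7 of the 10 genes, from RefSeq on GRCh38.p14, and those whose windows carried the findings below are printed 5′ to 3′ on the gene's strand, as the 250 bases before a listed transcription start. Capitals mark matches, on either strand, to the TEAD motif GGAATG or the thyroid hormone receptor half-site AGGTCA. YAP1 is shown because a TRβ peak with T3 covered its TEAD motif, in the window chr11:102110197-102110446 on the plus strand:
YAP1: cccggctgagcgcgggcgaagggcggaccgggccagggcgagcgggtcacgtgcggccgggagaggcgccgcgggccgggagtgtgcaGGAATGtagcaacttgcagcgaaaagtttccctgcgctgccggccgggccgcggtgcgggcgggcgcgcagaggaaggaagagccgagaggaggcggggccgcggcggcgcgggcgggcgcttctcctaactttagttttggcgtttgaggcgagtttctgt
WWTR1 is shown at the second of its listed starts, the one with peaks, in the window chr3:149658026-149658275 on the minus strand:
WWTR1: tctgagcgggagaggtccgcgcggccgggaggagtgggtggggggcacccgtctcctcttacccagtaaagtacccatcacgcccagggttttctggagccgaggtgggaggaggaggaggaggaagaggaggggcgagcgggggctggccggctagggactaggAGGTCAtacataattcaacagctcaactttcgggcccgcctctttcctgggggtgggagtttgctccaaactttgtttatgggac
TEAD2 is shown because the TRβ peak with the highest signal value near any of the 10 genes reached into its window, chr19:49362417-49362666 on the minus strand:
TEAD2: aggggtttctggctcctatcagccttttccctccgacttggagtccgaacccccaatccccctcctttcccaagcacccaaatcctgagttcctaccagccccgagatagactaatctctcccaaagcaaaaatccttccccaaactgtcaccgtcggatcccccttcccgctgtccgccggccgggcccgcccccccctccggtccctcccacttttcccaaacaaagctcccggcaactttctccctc
TEAD3 is shown because a TRβ peak with vehicle crossed its start, in the window chr6:35497080-35497329 on the minus strand:
TEAD3: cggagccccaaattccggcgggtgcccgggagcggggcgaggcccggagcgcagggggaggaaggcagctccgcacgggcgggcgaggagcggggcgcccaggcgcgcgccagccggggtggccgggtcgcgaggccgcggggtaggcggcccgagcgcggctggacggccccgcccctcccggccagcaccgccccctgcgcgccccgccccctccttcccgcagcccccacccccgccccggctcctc
AMOTL2, at the second of its listed starts, is shown for a TEAD motif that reads CATTCC on this strand, in the window chr3:134374448-134374697 on the minus strand:
AMOTL2: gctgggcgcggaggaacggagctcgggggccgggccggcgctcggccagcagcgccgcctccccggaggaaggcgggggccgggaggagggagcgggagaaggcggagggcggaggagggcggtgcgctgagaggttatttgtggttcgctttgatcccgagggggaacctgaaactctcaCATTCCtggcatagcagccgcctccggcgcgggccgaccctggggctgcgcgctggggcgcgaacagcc
CCN2 is shown for its 3 TEAD motifs, in the window chr6:131951373-131951622 on the minus strand:
CCN2: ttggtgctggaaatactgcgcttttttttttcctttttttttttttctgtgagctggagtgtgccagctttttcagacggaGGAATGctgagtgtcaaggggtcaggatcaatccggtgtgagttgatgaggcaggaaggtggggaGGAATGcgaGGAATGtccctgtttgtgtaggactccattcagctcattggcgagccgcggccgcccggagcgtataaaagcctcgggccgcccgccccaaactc

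The TEAD motif occurred in 4175 of 35116 RefSeq promoter windows of the same length (11.9%), the half-site in 12.1% and the AP-1 motif TGANTCA, found in none of the printed windows, in 6.57%. In YAP1 the TEAD motif began 162 bases before the start, at chr11:102110285-102110290, under the TRβ peak with T3 and under a peak of all 6 BRG1, ARID1A and PBRM1 lists. In CCN2 the TEAD motifs began 169, 104 and 95 bases before the start. At least 3 TEAD motifs were present in 29 of the 35116 windows (0.0826%). All 3 CCN2 motifs lay under BRG1 and ARID1A peaks in both conditions and under a PBRM1 peak with T3, and under no PBRM1 peak with vehicle and no TRβ peak. The WWTR1 half-site, 85 bases before its start at chr3:149658105-149658110, lay under all 6 remodeler lists and outside the TRβ peak nearby. No TEAD motif, half-site or AP-1 motif was found in the TEAD2 or TEAD3 windows, although both were touched by TRβ peaks. The windows not printed also held none of these motifs. They were that of LATS2, those of the first listed starts of WWTR1 and AMOTL2, and that of the second of TEAD2. The TEAD3 window was 84.0% G and C, against 60.0% in TEAD2, 72.0% in YAP1 and 53.2% in CCN2. A match is a run of letters and not evidence of a bound site, and its absence says nothing of binding by another sequence.

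TRβ peaks were listed near 2 of the 10 genes with vehicle, TEAD2 and TEAD3, where 11.1% of all protein-coding genes had one. With T3 they were listed near 6, YAP1, WWTR1, TEAD2, TEAD3, TEAD4 and CCN1, against 39.3% of all genes. YAP1, WWTR1, TEAD4 and CCN1 thus had a TRβ peak with T3 and none with vehicle, 4 of 10 where the share over all genes was 30.9%, and none of the 10 had one with vehicle and none with T3 (2.67% of genes). TEAD1, LATS2, AMOTL2 and CCN2 had no TRβ peak in either list. These shares are near the background for a set of 10, and the whole TRβ list was 7208 peaks long with T3 and 1412 with vehicle. Among the 1412 TRβ peaks with T3 of the highest signal value, as many as with vehicle, 2 lay near the 10 genes, at TEAD2 and TEAD3, and none at YAP1, WWTR1, TEAD4 or CCN1. The share over all genes was not computed for this shortened list. At a stricter limit on reproducibility (an irreproducible discovery rate, IDR, of at most 0.01), TRβ with T3 kept YAP1, TEAD2 and TEAD3. BRG1 and ARID1A were listed near all 10 genes in both conditions, where 82.8% (vehicle) and 79.8% (T3) of all genes had a BRG1 peak and 79.5% and 76.0% had an ARID1A peak. None of the 10 had BRG1 in 1 condition only (1.38% of genes with T3 only, 4.39% with vehicle only), and none had ARID1A so (4.73% and 8.20%). PBRM1 was listed near 8 of the 10 with vehicle (44.0% of genes) and near 9 with T3 (78.1%). CCN2 was the 1 gene with a PBRM1 peak with T3 and none with vehicle (34.8% of genes), and TEAD2 had no PBRM1 peak in either condition. None had PBRM1 with vehicle and not with T3 (0.684% of genes).

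**Figure D1:**
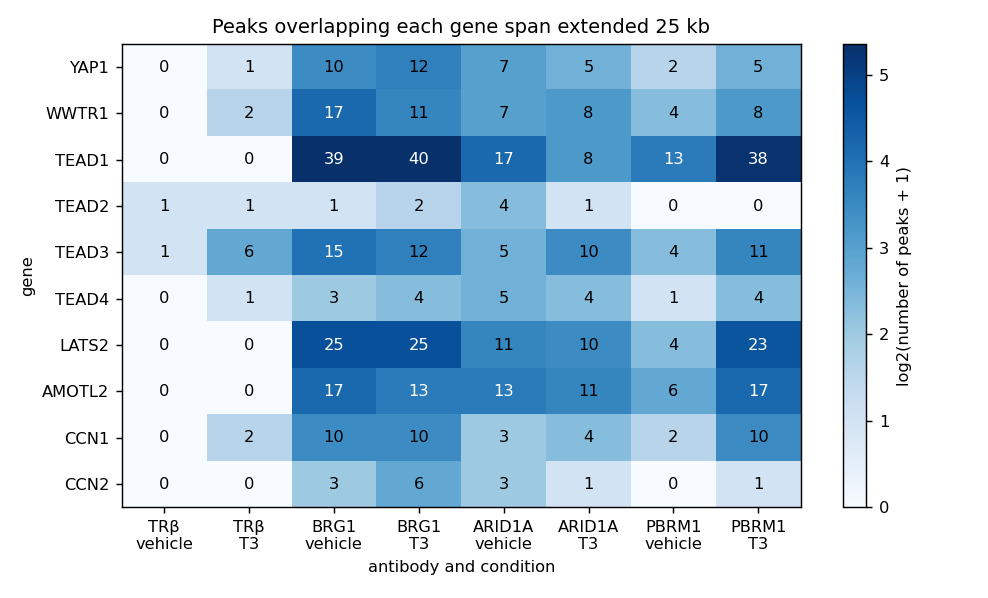
Number of peaks overlapping the span of each gene extended by 25 kb, with the 10 genes as rows and the 8 groups as columns, printed in each cell and coloured on the scale log2(number + 1). TRβ peaks were few (0 to 6 a gene), and TEAD1, the longest gene, had the most BRG1 peaks (39 with vehicle and 40 with T3).

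The coactivator YAP1 (chr11:102110447-102233424, plus strand) had 1 TRβ peak, with T3, at chr11:102109696-102110310. It was 615 bp wide, its centre lay 0.44 kb upstream of the YAP1 start, and it overlapped the span of the divergent long noncoding RNA gene YAP1-DT. Its signal value was 5.23 in the one library and 4.45 in the other, and 9.69 in the list, where it ranked 4250 of 7208. The signal value is the enrichment the authors' peak caller gave a peak, on a scale that is not stated, and the list value is the sum of its libraries. It describes a peak within its own list, and the values of different lists were not compared. The YAP1 peak was therefore of middling height among TRβ peaks, and even between the libraries. It lay in a site, meaning a stretch of overlapping peaks, at chr11:102109190-102113047 that held peaks of 7 of the 8 lists, all but TRβ with vehicle. The BRG1 peak there was 3648 bp wide with vehicle and 3292 bp with T3, and the PBRM1 peaks 1971 bp and 1998 bp. A second site, chr11:102169943-102172484 inside the gene, held all 6 remodeler lists and had the YAP1 BRG1 peaks with the highest signal values (29.74 with vehicle, 24.51 with T3).

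WWTR1, which encodes the coactivator TAZ (chr3:149517235-149724788, minus strand), had 2 TRβ peaks, both with T3. The first, chr3:149657047-149657777, was centred 0.61 kb downstream of the start printed above, with signal values of 8.24 and 3.32 in its libraries and a rank of 2227. The second, chr3:149575264-149576449, lay inside the gene, 82.17 kb downstream of that start, with signal values of 7.57 and 2.97 and a rank of 3129. Both peaks were higher in the same library. Each sat in a site that also held all 6 remodeler lists. At the start, the PBRM1 peak with vehicle (chr3:149654900-149659157) had signal values of 14.8 and 29.21 and ranked 85 of 9115 in its list. The ARID1A peak with vehicle there (chr3:149656366-149659144) had 16.57 and 17.68 and ranked 202 of 49021. The PBRM1 peak with T3 (chr3:149656357-149658749) ranked 1548 of 38140. The WWTR1 start thus stood among the highest PBRM1 and ARID1A peaks of the vehicle lists. The highest BRG1 peak of WWTR1 with T3, chr3:149574696-149579028, was at the site inside the gene, with signal values of 26.54 and 26.59 and a rank of 206 of 55938. No peak of any list covered the first of the listed WWTR1 starts, at the window chr3:149703274-149703523.

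TEAD2 (chr19:49340595-49362416, minus strand) had a TRβ peak in both conditions. With vehicle it spanned chr19:49362958-49364128, with signal values of 10.67 and 14.74 and a rank of 58 of 1412. With T3 it spanned chr19:49361940-49364490, with signal values of 11.72 and 17.04 and a rank of 52 of 7208, within the top 0.721% of its list. Among the 15 TRβ peaks of the 10 genes, these were the only pair that overlapped between conditions. The T3 peak crossed the TEAD2 start and also touched DKKL1, the gene on the other side, whereas the vehicle peak touched DKKL1 alone and began 0.54 kb outside TEAD2. Which of these neighbouring genes the peaks belong to cannot be told apart from position. BRG1 and ARID1A were listed at the same site in both conditions, the BRG1 peak with vehicle reaching 2770 bp (chr19:49361498-49364267). PBRM1 was not listed anywhere in the 71.8 kb TEAD2 window. A gene with TRβ, BRG1 and ARID1A in both conditions and PBRM1 in neither was rare, with 11 such genes, or 0.0549%, among the 20033. The vehicle peak had an IDR of 0.0392, so with the IDR limited to 0.01 TEAD2 had a TRβ peak with T3 and none with vehicle, and likewise with no flank or without flank peaks that touch another protein-coding gene.

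TEAD3 (chr6:35473597-35497079, minus strand) had the most TRβ peaks of the 10 genes, 1 with vehicle and 6 with T3. The vehicle peak, chr6:35496567-35497753, lay across the start, with signal values of 7.63 and 7.59 and a rank of 323 of 1412. No TRβ peak with T3 overlapped it, and the nearest, chr6:35495449-35495871, lay 1.42 kb inside the gene with signal values of 4.32 and 3.84 and a rank of 7064, close to the end of the T3 list. So TRβ was listed at the start of TEAD3 with vehicle and only beside it with T3. The highest TEAD3 peak with T3, chr6:35485508-35486297, was 11.18 kb downstream of the start, with signal values of 6.19 and 6.99, a rank of 1387 and an IDR of 0.000621. A second peak, chr6:35484823-35485433, adjoined it, with signal values of 3.65 and 5.66. The other 3 peaks with T3 lay downstream of TEAD3 in neighbouring genes, 2 in FANCE and 1 in RPL10A, with list signal values from 8.98 to 9.87. The peak chr6:35458157-35459215, in FANCE, was the 1 TRβ peak of the 10 genes with T3 that no remodeler peak overlapped.

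The remodelers at TEAD3 also differed between lists. The site at its start, chr6:35495216-35498733, which also reached the span of TULP1, was the 1 of 167 sites near the 10 genes held by all 8 lists (0.206% of sites near all genes). ARID1A covered 4.31% of the 73.5 kb TEAD3 window with vehicle and 14.38% with T3, and PBRM1 covered 9.34% and 20.56%. BRG1 covered 22.71% and 20.0%. Over the whole lists, the ratio of covered length with T3 to that with vehicle was 0.988 for ARID1A, 2.85 for PBRM1 and 0.971 for BRG1. Of the 11 TEAD3 PBRM1 peaks with T3, 7 overlapped none with vehicle (78.2% near all genes). For ARID1A, 5 of 10 did so (45.5%). About 6 kb inside the gene, ARID1A (chr6:35490177-35492774, 9.44 and 12.79) and PBRM1 (chr6:35490220-35492566, 13.92 and 12.99) were listed with T3 only. BRG1 was listed there in both conditions. At the TRβ peaks 11 to 12 kb inside the gene, BRG1 and ARID1A were listed in both conditions and PBRM1 with T3 only.

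TEAD4 (chr12:2959397-3040676) had 1 TRβ peak, with T3, chr12:2958950-2959614, across the end of the gene's span with the lower coordinate. Its signal values were 3.32 and 6.92 and its rank 3486. The site around it, chr12:2958169-2961762, held BRG1 and PBRM1 in both conditions and ARID1A with T3 only. The PBRM1 peak with vehicle, chr12:2958403-2961627, had signal values of 13.51 and 16.58 and ranked 455 of 9115. The ARID1A peak with T3, chr12:2958381-2960342, had 15.24 and 9.65 and ranked 1573 of 41710. The nearest ARID1A peak with vehicle was in the next site, chr12:2963190-2964884, centred 4.64 kb inside the gene from this end. That site held ARID1A in both conditions. In the whole TEAD4 window, 3 of the 4 ARID1A peaks with T3 overlapped none with vehicle (45.5% near all genes). Of the 5 with vehicle, 4 overlapped none with T3 (49.5%).

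TEAD1 (chr11:12674421-12944737), the longest of the 10 genes with a window of 320.3 kb, had no TRβ peak and the largest number of remodeler peaks in all. BRG1 had 39 peaks with vehicle and 40 with T3, covering 12.79% and 14.06% of the window, which placed it at the 87.2 and 90.3 percentile of all genes. ARID1A had 17 and 8 peaks and covered 3.27% and 1.34%. PBRM1 had 13 and 38 peaks and covered 5.21% and 8.14%, and 30 of the 38 with T3 overlapped no PBRM1 peak with vehicle, close to the 78.2% of PBRM1 T3 peaks near all genes. The BRG1 peak with the highest signal value with vehicle, chr11:12673805-12678824, crossed the end of the gene with the lower coordinate, with 33.45 and 16.63 in its libraries. With T3 it was chr11:12799448-12803980, well inside the gene, with 28.81 and 14.01.

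**Figure D2:**
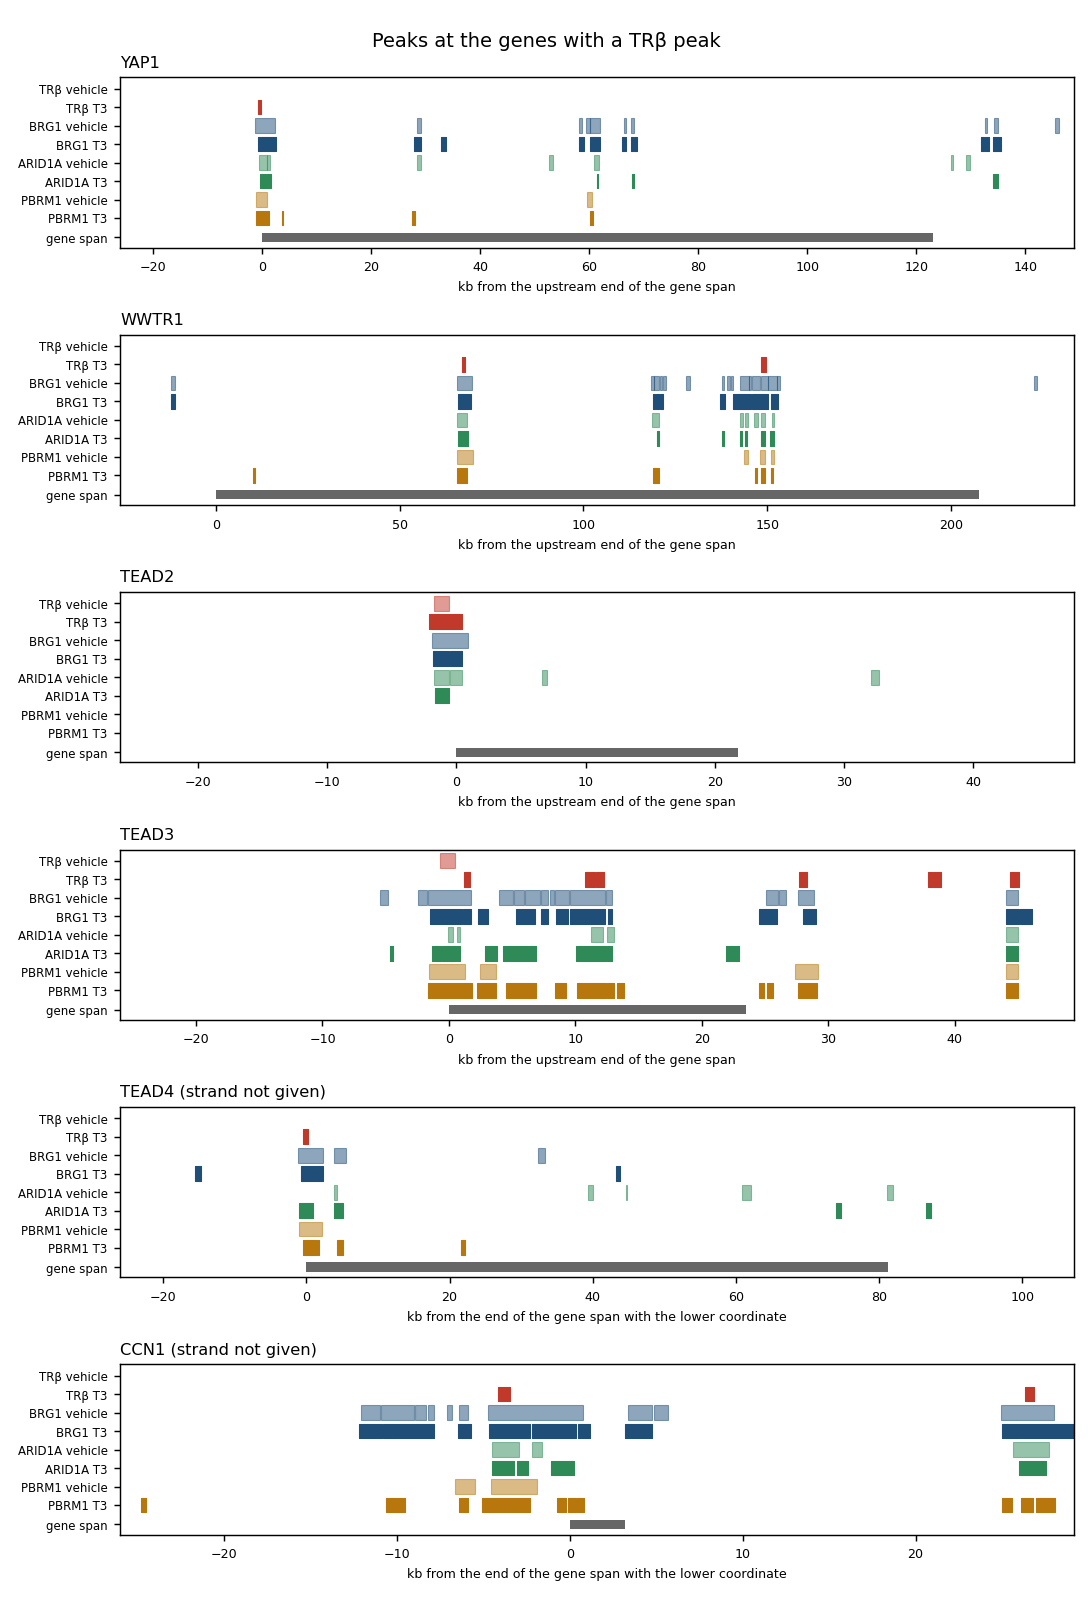
Peaks of the 8 lists along the 6 genes with a TRβ peak, with distance in kb from the upstream end of the gene span (or from its end with the lower coordinate where the strand is not given) on the horizontal axis, 1 row for each antibody and condition, pale for vehicle and dark for T3, and the gene span in grey. TRβ peaks stand at the starts of YAP1, TEAD2 and TEAD3, and all but 1 of the 13 with T3 stand over a remodeler peak.

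LATS2, the kinase that restrains YAP and TAZ (chr13:20973036-21061586, minus strand), had no TRβ peak and 25 BRG1 peaks in each condition. These covered 22.37% of its 138.6 kb window with vehicle and 23.86% with T3, at the 96.9 and 97.7 percentile of all genes. PBRM1 had 4 peaks with vehicle and 23 with T3, 17 of which overlapped no vehicle peak (78.2% near all genes), and covered 4.48% and 11.77%. ARID1A went the other way, with 11 and 10 peaks covering 7.94% and 5.79%. A site across the start, chr13:21057677-21062531, held all 6 remodeler lists, and its PBRM1 peak with T3 (chr13:21059231-21061824) had signal values of 14.87 and 10.47. Another such site, chr13:20992600-21000014, lay inside the gene and held the LATS2 BRG1 peak with the highest value with T3 (chr13:20995302-20999777, 27.54 and 28.04, rank 166).

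AMOTL2 (chr3:134355345-134375417, minus strand), which encodes an inhibitor of YAP that is also a YAP target, had the most densely covered window of the 10. BRG1 peaks covered 40.49% of its 70.1 kb with vehicle and 37.8% with T3, at the 99.8 percentile of all genes in both. PBRM1 covered 15.67% and 32.35%, at the 99.8 and 99.7 percentile, and ARID1A covered 14.38% and 21.13%. The median gene had 3.39% (vehicle) and 3.07% (T3) of its window under BRG1. Over the start printed above, the PBRM1 peak with T3, chr3:134369235-134375039, was 5805 bp wide, had signal values of 18.34 and 37.75 and ranked 23 of 38140. With vehicle, a 3738 bp peak (chr3:134369187-134372924, 16.05 and 23.1) ranked 146 of 9115 and ended short of the start. The other large cluster lay downstream of the gene, outside any protein-coding span and with its widest BRG1 peak in each condition touching the span of LOC105374118, as a site of 14370 bp at chr3:134323729-134338098 that held all 6 remodeler lists and was the widest of the 167. Its BRG1 peak was 8386 bp with vehicle (37.15 and 34.66, rank 86) and 9004 bp with T3 (27.99 and 45.39, rank 31). No TRβ peak was listed within 25 kb of AMOTL2 in either condition, and 1 was listed with T3 within 100 kb.

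CCN1 (chr1:85580761-85583950) had 2 TRβ peaks, both with T3 and both outside the gene. The one at chr1:85576586-85577318 lay 3.44 kb from the CCN1 span, inside the neighbouring gene DDAH1, with signal values of 3.7 and 4.83 and a rank of 6481. The other, chr1:85607081-85607618, lay 23.13 kb from CCN1 in no gene span, with 3.89 and 5.08 and a rank of 5475. Both were among the lower TRβ peaks. The second fell within the CCN1 window's highest BRG1 peaks, chr1:85605686-85608779 with vehicle (38.86 and 18.37, rank 275) and chr1:85606558-85610327 with T3 (23.48 and 24.06, rank 391). BRG1 covered 29.46% and 28.94% of the 53.2 kb window, at the 98.9 percentile of all genes in both conditions. PBRM1 had 2 peaks with vehicle and 10 with T3, 8 of which overlapped no vehicle peak (78.2% near all genes), and covered 7.1% and 15.8%.

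CCN2 (chr6:131948176-131951372, minus strand), with the same window length as CCN1, was far less covered. BRG1 covered 6.22% with vehicle and 10.08% with T3 through 3 and 6 peaks. PBRM1 had 0 peaks with vehicle and 1 with T3, chr6:131950181-131951556, which crossed the start and the 3 TEAD motifs printed above, with signal values of 8.78 and 8.95 and a rank of 7508 of 38140. The PBRM1 list was shorter with vehicle over the whole genome (9115 peaks), and whether a peak too weak to be listed was present then cannot be read from it. ARID1A at the same place was 2 separate peaks with vehicle (chr6:131949948-131950919 and chr6:131951153-131951675, list values 8.41 and 8.54) and 1 peak with T3 (chr6:131949935-131951579, 10.83 and 10.26, rank 3100).

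**Figure D3:**
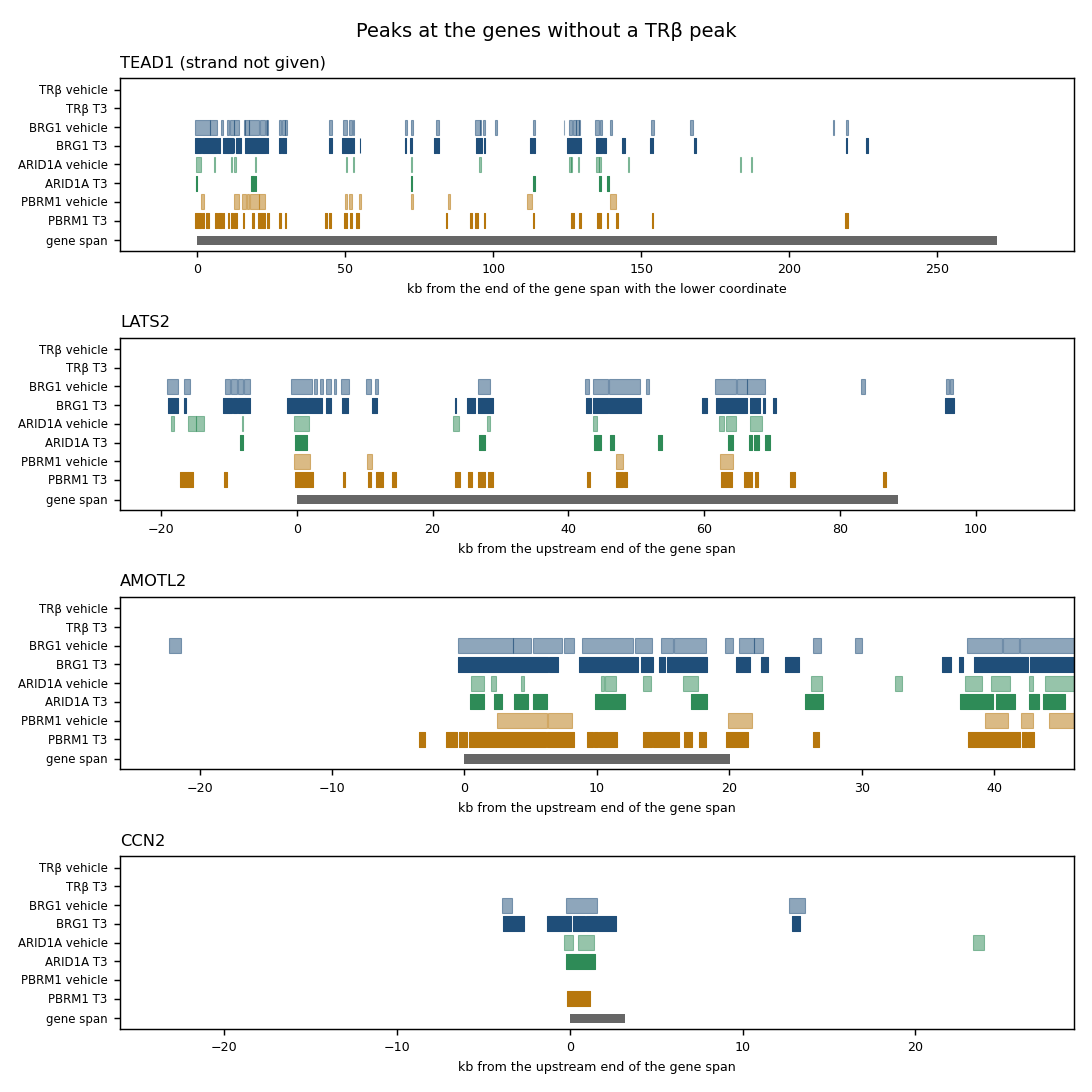
Peaks of the 8 lists along the 4 genes without a TRβ peak, drawn with distance in kb from the upstream end of the gene span (for TEAD1, from its end with the lower coordinate), pale for vehicle and dark for T3, and the gene span in grey. AMOTL2 and LATS2 carry broad BRG1 blocks in both conditions, and CCN2 has a single PBRM1 peak, with T3.

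Read over the 13 TRβ peaks with T3, 12 overlapped a BRG1 peak with T3 (72.9% of TRβ T3 peaks near all genes), 10 an ARID1A peak (70.5%) and 11 a PBRM1 peak (67.1%). All 3 remodelers overlapped 9 of them (58.3%), and 1 overlapped none (20.0%). Set against the vehicle lists of the remodelers, the same 13 overlapped BRG1 in 12 (75.2%), ARID1A in 9 (68.8%) and PBRM1 in 8 (24.9%). BRG1 was therefore already listed with vehicle at 12 of the 13 places where TRβ was listed with T3. For PBRM1 the 8 of 13 stood above the background share, a difference that was not tested, and they were spread over 5 genes, YAP1, WWTR1, TEAD3, TEAD4 and CCN1. The 3 that PBRM1 gained between its lists were the 2 TEAD3 peaks 11 to 12 kb inside the gene and the distal CCN1 peak. The scatter of library values shows how these peaks stood in their list.

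**Figure D4:**
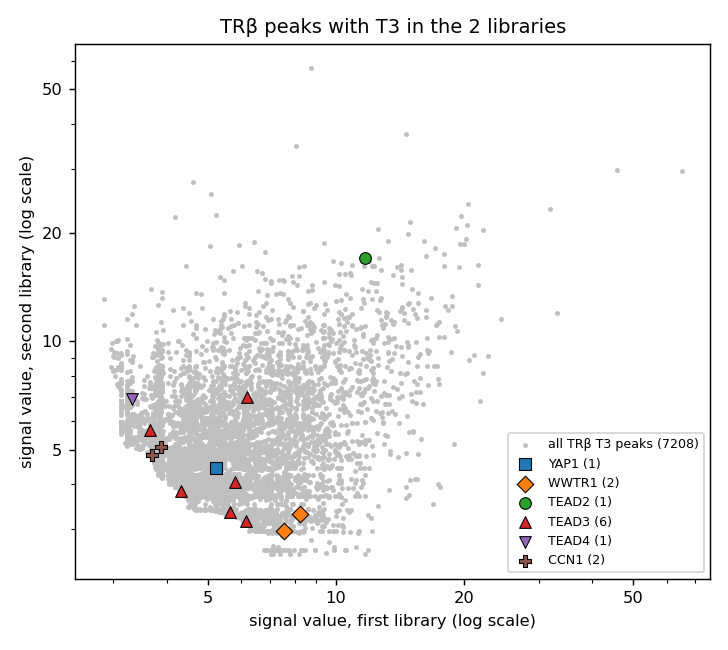
Signal value of each of the 7208 TRβ peaks with T3 in the first (horizontal) and second (vertical) library column of the list, both on log scales, with all peaks in grey and the 13 peaks of the 6 genes as coloured symbols. The TEAD2 peak (11.72 and 17.04) stands apart from the other 12, which lie between 2.97 and 8.24 in either library.

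In each of the 8 lists, the share of peaks listed in 1 condition only was lower near the 10 genes than near all genes. The differences ranged from slight to larger and were not tested. Of TRβ peaks, 12 of 13 with T3 overlapped no vehicle peak (92.3%, exact 95% interval 64.0 to 99.8, against 92.8% near all genes), and 1 of 2 with vehicle overlapped no T3 peak (65.1%). For BRG1, 30 of 140 vehicle peaks (21.4%, interval 14.9 to 29.2, against 28.7%) and 27 of 135 T3 peaks (20.0%, interval 13.6 to 27.7, against 22.6%) were listed in that condition only. For ARID1A these were 35 of 75 (46.7%, interval 35.1 to 58.6, against 49.5%) and 21 of 62 (33.9%, interval 22.3 to 47.0, against 45.5%). PBRM1 had 8 of 36 vehicle peaks (22.2%, interval 10.1 to 39.2, against 23.6%) and 82 of 117 T3 peaks (70.1%, interval 60.9 to 78.2, against 78.2%) in 1 condition only. Among the 9115 PBRM1 peaks with T3 of the highest signal value, as many as with vehicle, 24 lay near the 10 genes, against 36 with vehicle. The matching counts over all genes were not computed, so 24 against 36 cannot be read as a change particular to these genes. The intervals are Clopper-Pearson intervals, which cover counting error only and treat neighbouring peaks as independent. In covered length, PBRM1 peaks took 58.1 kb of the 10 windows with vehicle and 104.3 kb with T3, a ratio of 1.80, while the whole list went from 13.097 to 37.373 Mb, a ratio of 2.85. The mean peak of the whole list was 1437 bp wide with vehicle and 980 bp with T3. For BRG1 the ratio was 1.01 in the windows and 0.971 over the list, and for ARID1A 0.978 and 0.988. The near-equal ARID1A total hid genes that went opposite ways, with TEAD3, TEAD4, AMOTL2 and CCN1 more covered with T3 and the other 6 more covered with vehicle.

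**Figure D5:**
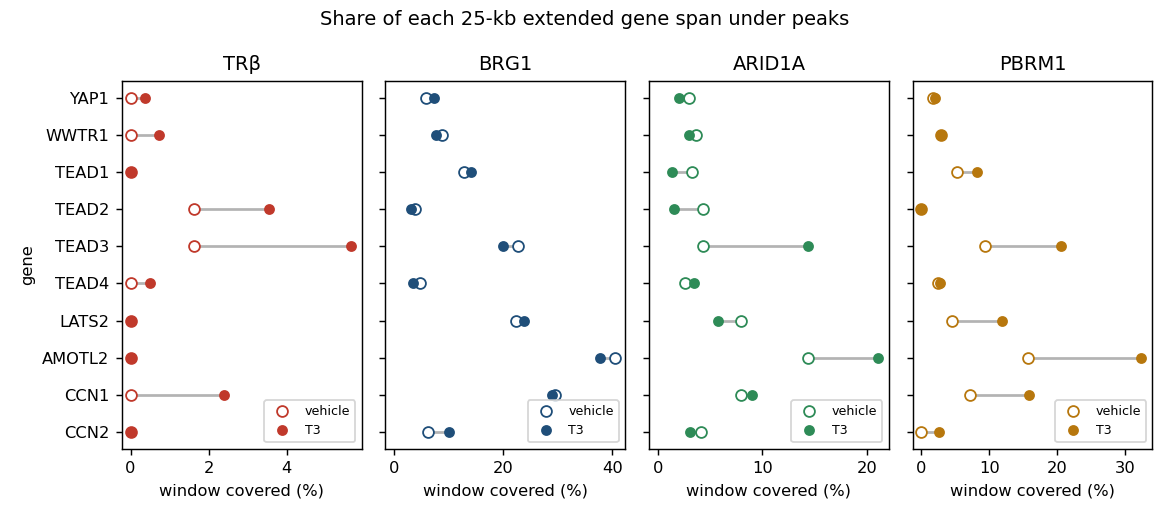
Share of each gene's window, its span extended by 25 kb on each side, that lay under peaks, in percent on the horizontal axis of 1 panel per antibody, with open circles for vehicle and filled circles for T3. BRG1 pairs lie close together. For ARID1A the largest shifts to the right with T3 are those of TEAD3 and AMOTL2. For PBRM1 all genes but WWTR1 and TEAD2 lie further right with T3.

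Joined over the 8 lists, the peaks formed 167 sites, of which 14 held all 6 remodeler lists (8.38%, against 5.04% of sites near all genes). BRG1 was listed in both conditions at 78 (46.7%, against 35.0%), and ARID1A stood alone at 21 (12.6%, against 22.9%). TRβ peaks fell on 12 sites (7.19%, against 7.71%). The windows of the 10 genes were longer than usual, with a median of 102.4 kb against 74.1 kb, which bears on counts of peaks. The covered share, which takes length into account, had a median over the 10 genes of 10.74% for BRG1 with vehicle and 12.07% with T3, against 3.39% and 3.07% over all genes. For PBRM1 the medians were 3.68% and 5.5%, against 0.0% and 1.98%, and for ARID1A 4.2% and 3.29%, against 1.84% and 1.71%.

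Other genes of the pathway were counted in the same way. Of 27 Hippo kinases, scaffolds and cofactors, 2 had a TRβ peak with vehicle (11.1% of all genes) and 15 with T3 (39.3%), and 13 had one with T3 and none with vehicle (30.9%). The TRβ peaks with the highest signal values among them were near TAOK1 (15.19, in TP53I13), AJUBA (14.1, in C14orf93), TAOK2 (12.52) and MOB1B (12.27, in DCK), so that only that of TAOK2, a kinase upstream of LATS, touched the gene it was counted for. BRG1 was listed near 26 of the 27 in each condition (82.8% of all genes with vehicle, 79.8% with T3), and PBRM1 near 18 with vehicle (44.0%) and 24 with T3 (78.1%). Of 17 further YAP/TEAD target genes, 3 had a TRβ peak with vehicle and 6 with T3, 5 of them with T3 and none with vehicle, and the last 2 counts are near the shares of 39.3% and 30.9% over all genes. The highest were within ARHGEF17 (20.85), GADD45A (13.9), ASAP1 (13.88) and AXL (13.24), a receptor tyrosine kinase. None of these peaks overlapped a TRβ peak with vehicle, but AXL had a TRβ peak with vehicle elsewhere in its window. BRG1 was listed near all 17 in both conditions (82.8% and 79.8% of all genes), and PBRM1 near 10 and 16 (44.0% and 78.1%). Of the 4 thyroid transcription factors PAX8, NKX2-1, FOXE1 and HHEX, which mark thyroid epithelium, BRG1 was listed near 3 in each condition and TRβ near 1 with vehicle and 2 with T3 (11.1% and 39.3% of all genes), which says nothing of their expression.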

How the data were processed

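CUT&RUN peak lists for 4 antibodies and 2 conditions were used, 1 list for each group of 2 libraries. Per the submitters' processing notes the tools were CASAVA 1.7, Trim Galore, Bowtie2 and MACS2 with the build hg38; parameters and depth are not stated there. The lists have the layout of the IDR method. A deposited signal value adds up those of both libraries, which was checked on the files, and −log10 of the IDR is a deposited column; the lists reached a rate of 0.05. Which signal column belongs to which numbered library is not stated, and 16 summit columns were not used. Intervals are the union of both libraries' intervals, in deposited coordinates given here counted from 1.

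The 817 peaks on contigs other than chromosomes 1 to 22, X or Y were left out, and list lengths and ranks are those of the peaks kept. Gene spans and starts came from RefSeq tables of GRCh38.p14, which give no exons, so whether a peak is exonic, intronic or in a UTR is not known here. Peaks overlapping by at least 1 bp counted as shared and were joined to sites. Libraries were grouped by the labels. No test was run, since each group had 1 list, and shares were set beside those of all protein-coding genes. Overlap counting was tested on simulated data. The 10 genes and the gene lists were chosen with earlier results of these data known. Named were the 10 genes and, for each further list, up to 4 genes with the highest TRβ signal value with T3, a rule that also named genes sharing certain patterns of peaks, of which there were none to apply it to. Alternatives were a stricter IDR, other flanks, the intervals of single libraries, lists of equal length and a reciprocal overlap; leaving out flank peaks in other genes was added after seeing the data. Python 3.11.15, numpy 2.4.6, pandas 2.3.3, scipy 1.17.1 and matplotlib 3.10.9 were used.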

Additional observations from a re-analysis of the deposited data

How the results depend on the processing

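Of 296 values recomputed under alternatives, 227 stayed within the set tolerance and 69 moved. The intervals of either single library left all values within it, 40 for each library column. They keep the same listed peaks and change only their ends, so counts could hardly move, and they say little about robustness. At an IDR of at most 0.01, peaks near the 10 genes numbered 1 for TRβ with vehicle, 3 for TRβ with T3, 37 for ARID1A with vehicle, and 11 and 59 for PBRM1 with vehicle and T3. TRβ was then listed near 1 gene with vehicle and 3 with T3 (YAP1, TEAD2 and TEAD3), near 2 with T3 and not vehicle, and PBRM1 near 3 with T3 and not vehicle. Peaks in 1 condition only were 100% of both TRβ lists and 84.7% of PBRM1 with T3. TRβ peaks with T3 then overlapped BRG1 in 3, ARID1A in 2, PBRM1 in 2 and all 3 in 1. The TRβ peaks of WWTR1, TEAD4 and CCN1 with T3 and that of TEAD2 with vehicle were lost at this limit.

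With no flank, TRβ had 1 peak near 1 gene (TEAD3) with vehicle and 7 peaks with T3, and PBRM1 was gained near 2 genes. A flank of 100 kb gave 4 TRβ peaks with vehicle, 225 and 203 BRG1 peaks and 119 and 114 ARID1A peaks with vehicle and T3. TRβ with T3 then had 1 peak near AMOTL2 and 4 near TEAD2. Without flank peaks in another protein-coding gene, TRβ with vehicle had 1 peak near 1 gene, 100% of it in that condition only, and PBRM1 was gained near 2 genes.

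When the longer list of each protein was shortened to the length of the other by signal value, TRβ with T3 had 2 peaks near 2 genes, with 0 genes gained, and 50% of peaks in that condition only. PBRM1 with T3 had 24 peaks, with 61.1% (vehicle) and 45.8% (T3) in 1 condition only. Shares over all genes were not recomputed for the shortened lists. The TRβ peaks overlapped BRG1 in 2, ARID1A in 2, PBRM1 in 1 and all 3 in 1. The T3-only TRβ peaks of YAP1, WWTR1, TEAD4 and CCN1 all ranked below this cut and so were removed by it. Whether list length accounts for their absence with vehicle was not tested. A reciprocal overlap of 50% put 100% of both TRβ lists, 50% and 48.1% of BRG1, 68.0% and 61.3% of ARID1A and 41.7% and 82.1% of PBRM1 peaks in 1 condition only, with overlaps of 2, 4, 3 and 1 for BRG1, ARID1A, PBRM1 and all 3. Where no alternative above shows it by construction, the cause was not tested. No paired analysis was possible because each group has 1 list made from both of its numbered libraries. Read depth, which limits how low a peak could be found, is unknown.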
